A study of Capra hircus with 8 samples.

Results

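The genes described here make, modify and store fatty acids and sebum lipids in skin. They are 34 listed symbols of sebaceous and fatty acid metabolism, and each was looked up by its exact symbol among the 18815 genes of the first deposited count table. Of the 34, 33 were found, and HSD3B1, which makes an early step of steroid hormone synthesis, was not listed there. Of the 33, 31 had enough reads to be tested. AWAT2 and PLIN5 did not, with at most 7 and 3 reads in any library.

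The study sequenced polyadenylated RNA of goat skin (Capra hircus) from cashmere goats, which grow a seasonal undercoat of fine fibre, and from milk goats, and its title names seasonal cycling of hair follicles as the question. There was 1 library of each breed at months 3, 6, 9 and 12, so 8 libraries in all, 4 of each breed. The labels carry the month in a field for age, give no treatment, sex, body site or number of animals per library, and word the extraction for embryos although the tissue is given as skin. Because nothing says how many animals stand behind a library, the p-values below measure only the spread between these libraries, which may be technical. With 1 library of each breed and month, that spread is what month and breed leave unexplained. It also holds any difference between the breeds in their course over the months.

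Sebaceous glands sit beside hair follicles, and their cells fill with lipid droplets and then burst, releasing their whole content as sebum. Inside these cells acetyl units are built into palmitate, which is lengthened by elongases, given double bonds by desaturases, activated by acyl-CoA synthetases and then joined to glycerol, cholesterol or fatty alcohols as triglycerides, sterol esters and waxes. The epidermis uses a partly shared set of enzymes for the very long fatty acids of its barrier lipids, and subcutaneous fat cells use another part of it to make triglycerides. In whole skin, fewer cells of a type and less RNA per cell cannot be told apart.

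Total reads assigned to genes ran from 7480053 to 8718429 in the cashmere libraries and from 11333734 to 13899750 in the milk libraries, so a count of 3 reads corresponded to 0.231 to 0.395 CPM, a read count scaled to library size. The library sizes behind CPM were scaled by TMM, a method that offsets very abundant genes. The milk library of month 9 had the lowest TMM factor, 0.783, against 0.990 to 1.13 in the other 7. In that library 7 marker genes of the inner root sheath, a layer of the growing follicle, summed to 177984 CPM. Most of it was trichohyalin (TCHH) at 165648 CPM, and the sum in the milk library of month 12 was 3007 CPM.

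By level per gene length, the highest of the lipid genes was ELOVL3, an elongase of saturated fatty acids known from sebaceous glands and hair follicles, with a median of 219 FPKM, a fragment count scaled to gene length and library size, over the 8 libraries and a range of 149 to 523 FPKM. Next by this measure came KRT79, a keratin of the follicle opening and sebaceous duct, with a median of 136 FPKM, ELOVL4, an elongase that makes the longest fatty acids of barrier lipids, with 111, and the droplet coat protein PLIN2 with 94.2. FAR2, which reduces fatty acids to the alcohols of wax esters, followed at 93.1 FPKM. Mid-range levels were seen for SOAT1, which esterifies cholesterol, at 51.6 FPKM, for FASN, which builds palmitate, at 29.5, and for SCD, which puts the first double bond into palmitate and stearate, at 14.9. Lowest among those tested were FADS2 at 0.765 FPKM and DGAT1, one of the enzymes that complete triglycerides, at 0.690. FPKM as deposited carries no TMM factor, and for 19 of the 31 genes the milk library of month 9 was the lowest once counts were scaled by library totals alone, as it was for 46.6% of all genes, against 8 of 31 (25.8%, with 19.4% of all genes) with TMM.

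**Figure D1:**
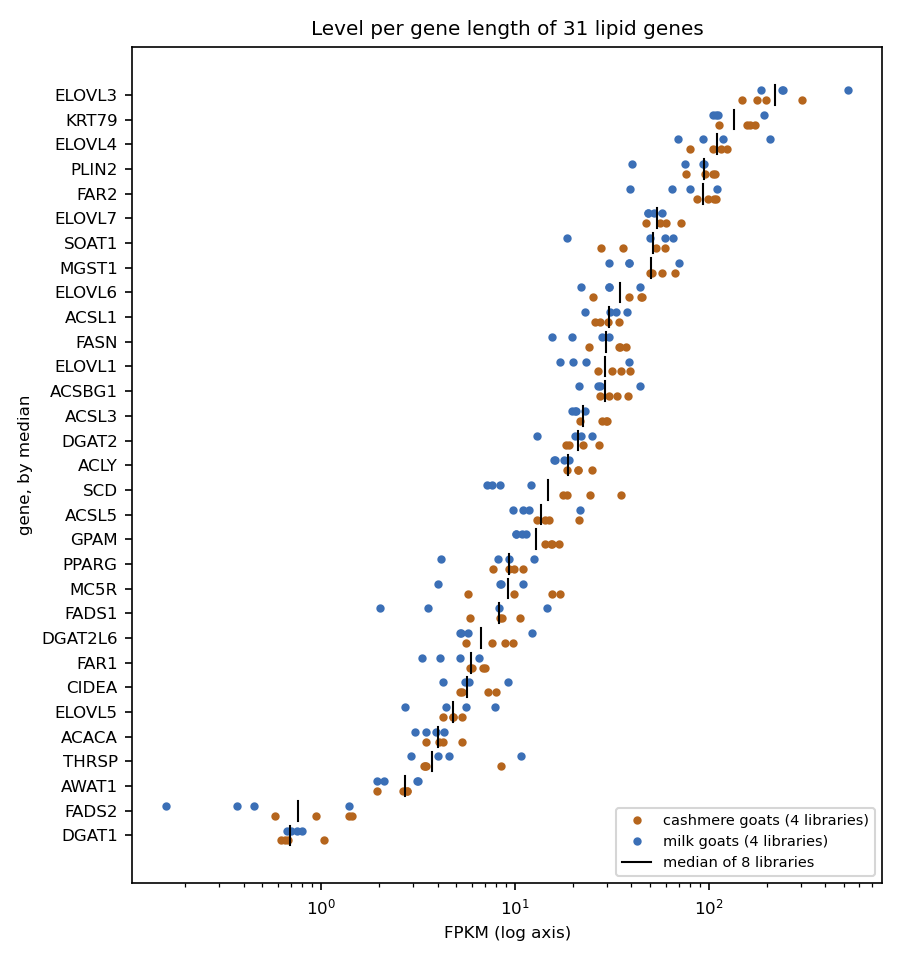
Deposited FPKM (log axis) of the 31 tested genes, ordered by their median over 8 libraries (black bar), with 1 point per library coloured by breed. ELOVL3 stands at the top with a median of 219 FPKM and DGAT1 at the bottom with 0.690, and only for SCD and GPAM do the 4 points of one breed lie wholly above those of the other.

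The first comparison asked which of these genes differed between the breeds over the 4 months. SCD was higher in cashmere goats, and it was 1 of 31 members (3.23%) past an adjusted p of 0.05 in edgeR's quasi-likelihood test, while 4.79% of all 14085 genes tested passed it. By direction, 1 member was higher and 0 were lower in cashmere goats, where 1.47% and 3.32% of all genes were. The median log2 fold change of the 31 genes, cashmere over milk goats, was 0.05, against 0.03 for all genes tested. It was positive for 19 and negative for 12, and 28 of 31 (90.3%) lay within 0.5 of zero on the log2 scale, against 75.0% of all genes. At an unadjusted p under 0.05 the members numbered 2 of 31 (6.45%), SCD higher and ELOVL3 lower in cashmere goats, against 26.9% of all genes (12.9% higher and 13.9% lower).

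**Figure D2:**
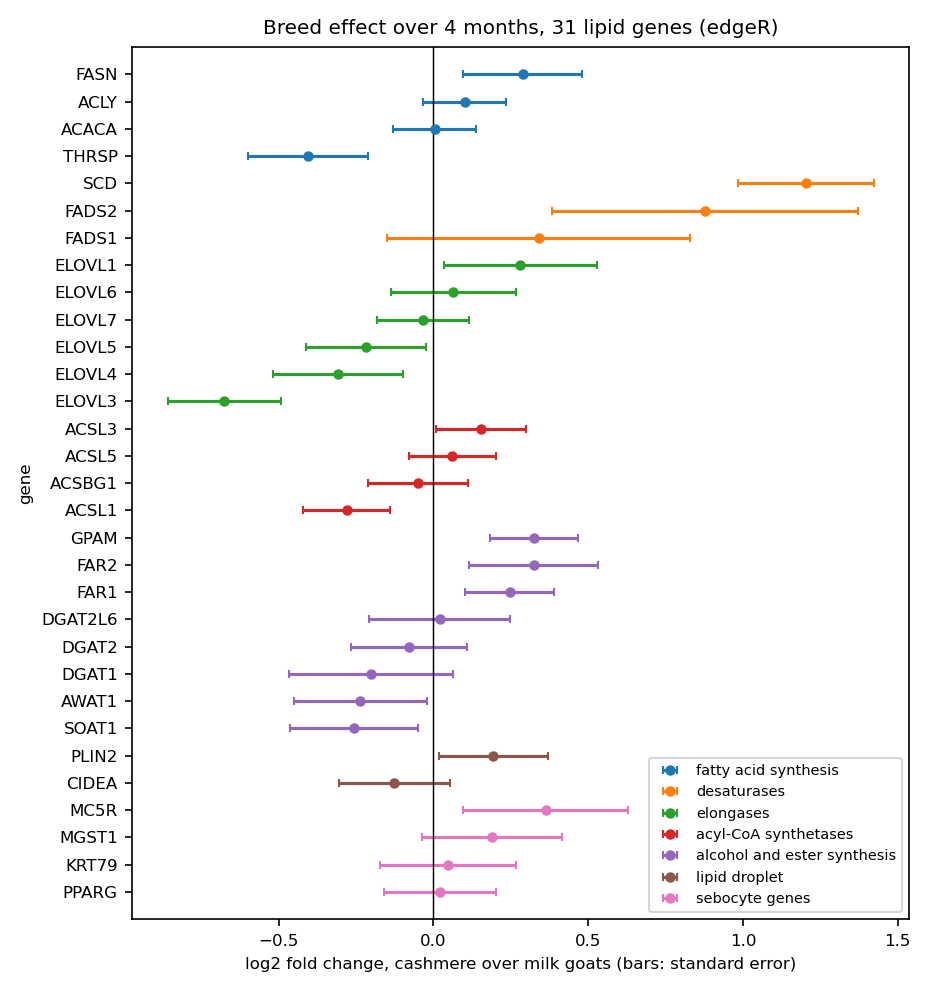
Log2 fold change of each gene, cashmere over milk goats, with its standard error as a bar, coloured by role, from an edgeR fit with month and breed over 8 libraries. SCD lies farthest to the right at 1.20 and ELOVL3 farthest to the left at -0.68, and 28 of the 31 genes lie within 0.5 of zero.

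SCD (gene24505 in the deposited table) was measured at 40.3, 62.7, 32.6 and 32.3 CPM in the cashmere libraries of months 3, 6, 9 and 12. In the milk libraries of the same months it was measured at 22.1, 15.3, 18.5 and 15.1 CPM. The lowest cashmere library therefore lay above the highest milk library, an arrangement found for 6.46% of all genes tested and for no other member, while the reverse was found for 8.02% of all genes and for 0 members. The means were 42.0 ± 14.3 CPM (SD, n = 4) in cashmere goats and 17.7 ± 3.28 CPM (SD, n = 4) in milk goats, and the fitted log2 fold change was 1.20 ± 0.22 (SE), or 2.30-fold, with an adjusted p of 0.0362 in edgeR. Within the months the ratio of cashmere to milk was 1.83, 4.09, 1.77 and 2.14, so the month 6 pair, where the highest cashmere library stood, had the widest gap.

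The call on SCD depended on which libraries were in the fit. Without any 1 library of month 3, 6 or 9 its adjusted p rose to between 0.101 and 0.112 at a log2 fold change of 0.89 to 1.35, and 0 to 4 genes of the whole table passed. Leaving out the month 6 library of cashmere or of milk goats gave the smallest values, 0.93 and 0.89. Without either library of month 12 the call remained, at 1.24 and 1.22. The second deposited count table, which lists 526 to 1925 reads for SCD in place of 171 to 521, gave a log2 fold change of 1.24 with an adjusted p of 0.0305, in a fit where 7.45% of all genes passed. SCD5, a related desaturase, was measured at 15.7, 11.4, 11.7 and 8.43 CPM in cashmere goats and at 21.7, 16.9, 12.1 and 21.8 CPM in milk goats, and its log2 fold change of -0.61 did not pass (adjusted p = 0.146, edgeR).

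The other desaturases, FADS1 and FADS2, introduce double bonds into polyunsaturated fatty acids, and FADS2 also makes the unusual monounsaturated acid of human sebum. FADS2 was at 2.75, 4.82, 7.33 and 7.24 CPM in the cashmere libraries of months 3, 6, 9 and 12, and at 1.95, 2.39, 9.65 and 0.969 CPM in the milk libraries. Values of both breeds overlapped, and the log2 fold change was 0.88 ± 0.49 (SE, adjusted p = 0.293). FADS1, named after its values were seen, was at 38.5, 59.2, 60.0 and 77.2 CPM in cashmere goats and at 26.1, 60.5, 140.6 and 16.7 CPM in milk goats. Both genes were highest in the milk library of month 9 and lowest in the milk library of month 12, the libraries with the highest and the lowest sum of inner root sheath genes, and within milk goats the range was 8.40-fold for FADS1 and 9.96-fold for FADS2. The part of the follicle layer in these values was not tested. The RefSeq table of assembly ARS1.2 places 1 other gene between FADS1 and FADS2.

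Elongases add carbons to fatty acids, and 4 of the 6 here had a negative log2 fold change, with a median of -0.13. ELOVL3 was at 411, 492, 369 and 772 CPM in the cashmere libraries of months 3, 6, 9 and 12, and at 621, 621, 633 and 1533 CPM in the milk libraries. It was lower in cashmere goats at all 4 months, a pattern found in 18.1% of all genes, yet the cashmere library of month 12 lay above 3 of the 4 milk libraries. Its log2 fold change was -0.68 ± 0.18 (SE), with an adjusted p of 0.0760 in edgeR and of 0.00120 in DESeq2, where 12.2% of all genes passed. In the second count table the value was -0.32, with an adjusted p of 0.292. RefSeq lists 34 genes between ELOVL3 and SCD, whose breed values had opposite signs.

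ELOVL4 was at 547, 530, 404 and 648 CPM in cashmere goats and at 617, 491, 480 and 1232 CPM in milk goats. Only the milk library of month 12 stood clear of the other 7, and the log2 fold change was -0.31 ± 0.21 (SE, adjusted p = 0.379). ELOVL1, which extends saturated and monounsaturated acids, ran from 76.9 to 109 CPM in cashmere goats and from 57.7 to 127 CPM in milk goats, with its highest milk value at month 12. ELOVL6, which turns palmitate into stearate, had a log2 fold change of 0.06 ± 0.20 (SE), and ELOVL7 one of -0.03 ± 0.15 (SE). ELOVL5, an elongase of polyunsaturated acids, ran from 19.4 to 24.3 CPM in cashmere goats and from 16.7 to 37.1 CPM in milk goats. Elongases resemble each other in sequence, and how reads shared by related genes were counted is not given in the sources used here.

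Of the 4 genes of palmitate synthesis and its regulation, FASN was measured at 434, 501, 321 and 476 CPM in the cashmere libraries, in month order. The milk libraries gave 392, 275, 284 and 485 CPM. The breeds overlapped, with a log2 fold change of 0.29 ± 0.19 (SE, adjusted p = 0.368). ACACA, which makes the malonyl units that FASN uses, and ACLY, which makes acetyl-CoA from citrate, had log2 fold changes of 0.00 ± 0.13 and 0.10 ± 0.13 (SE). THRSP, a nuclear protein that promotes fatty acid synthesis, was at 8.36, 9.03, 8.82 and 22.6 CPM in cashmere goats and at 12.3, 7.86, 14.2 and 32.9 CPM in milk goats. Month 12 was the highest library of THRSP in each breed, and its breed value was -0.41 ± 0.19 (SE, adjusted p = 0.227).

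Acyl-CoA synthetases attach coenzyme A to free fatty acids, which readies them for every later step. ACSL1 was at 219, 209, 178 and 195 CPM in cashmere goats and at 268, 221, 217 and 269 CPM in milk goats. It was lower in cashmere goats at all 4 months, but the highest cashmere library lay above the lowest milk library, and its log2 fold change of -0.28 ± 0.14 (SE) did not pass (adjusted p = 0.244). ACSL3, ACSL5 and ACSBG1 had log2 fold changes of 0.15 ± 0.14, 0.06 ± 0.14 and -0.05 ± 0.16 (SE).

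GPAM, which adds the first fatty acid to glycerol phosphate, was the other gene higher in cashmere goats at all 4 months, where 19.6% of all genes were. It was at 155, 182, 178 and 203 CPM in cashmere goats and at 122, 138, 174 and 140 CPM in milk goats. One milk library, month 9, lay among the cashmere values in CPM. In the deposited FPKM, without the TMM factor, the breeds did not overlap, with 14.3 to 16.9 FPKM in cashmere goats and 10.1 to 11.4 FPKM in milk goats. The log2 fold change was 0.33 ± 0.14 (SE), with an adjusted p of 0.190 in edgeR, and limma on log2(FPKM + 1) gave 0.50 with an adjusted p of 0.0456 on that scale, where 8.46% of all genes passed.

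Fatty alcohols for wax come from FAR1 and FAR2. FAR2 was at 542, 627, 511 and 663 CPM in cashmere goats and at 489, 397, 314 and 770 CPM in milk goats, so milk goats held both the lowest and the highest library (log2 fold change 0.32 ± 0.21, SE, adjusted p = 0.350). FAR1 was at 48.1, 44.2, 45.0 and 54.3 CPM in cashmere goats and at 50.8, 40.8, 34.3 and 36.7 CPM in milk goats (log2 fold change 0.25 ± 0.14, SE, adjusted p = 0.305). SOAT1 was at 362, 347, 179 and 240 CPM in cashmere goats and at 438, 335, 165 and 456 CPM in milk goats, with its lowest library at month 9 in each breed and a breed value of -0.26 ± 0.21 (SE, adjusted p = 0.458).

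The wax synthases and triglyceride acyltransferases include 4 relatives, DGAT2, DGAT2L6, AWAT1 and AWAT2, whose reads may be hard to assign where their sequences match. RefSeq places AWAT1 directly beside DGAT2L6 and 2 genes between DGAT2L6 and AWAT2. DGAT2, a main triglyceride synthase, ran from 72.6 to 96.9 CPM in cashmere goats and from 68.7 to 114 CPM in milk goats. DGAT2L6 ran from 13.2 to 23.7 and from 12.9 to 34.2 CPM, and AWAT1, a wax synthase of sebaceous glands, from 5.15 to 8.03 and from 5.70 to 12.3 CPM. AWAT2 was barely detected, with 0 reads in the milk library of month 6 and at most 7 elsewhere. None of DGAT1, DGAT2, DGAT2L6 and AWAT1 passed the breed test (adjusted p = 0.511 to 0.966), with log2 fold changes from -0.24 to 0.02.

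Lipid droplets are coated by PLIN2 and enlarged by CIDEA, while PLIN5 coats droplets mainly of tissues that burn fat. PLIN2 ran from 314 to 443 CPM in cashmere goats and from 226 to 460 CPM in milk goats, and CIDEA from 24.3 to 38.8 and from 27.9 to 52.7 CPM. Their log2 fold changes were 0.19 ± 0.18 and -0.13 ± 0.18 (SE). PLIN5 had 0 reads in 4 libraries and at most 3 in the others, so no difference in it was detectable at this depth.

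Among regulators and markers of sebocytes, MC5R, a melanocortin receptor that controls sebum output in mice, was at 93.9, 92.8, 58.8 and 34.9 CPM in cashmere goats and at 67.8, 52.3, 32.6 and 58.8 CPM in milk goats. Cashmere goats held the higher value at months 3, 6 and 9 and the lower at month 12, and the breed value was 0.36 ± 0.27 (SE, adjusted p = 0.414). Without either library of month 12, MC5R and ELOVL1 passed the breed test, MC5R at 0.71 and 0.69 on the log2 scale (adjusted p = 0.0342 and 0.0376, edgeR) and ELOVL1 at 0.61 and 0.58 (adjusted p = 0.0393 and 0.0436), in fits where 6.05% and 5.28% of all genes passed. PPARG, the nuclear receptor of sebocyte and fat cell differentiation, had a breed value of 0.02 ± 0.18 (SE), KRT79 one of 0.05 ± 0.22, and MGST1, a membrane glutathione transferase of sebocytes, one of 0.19 ± 0.22.

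**Figure D3:**
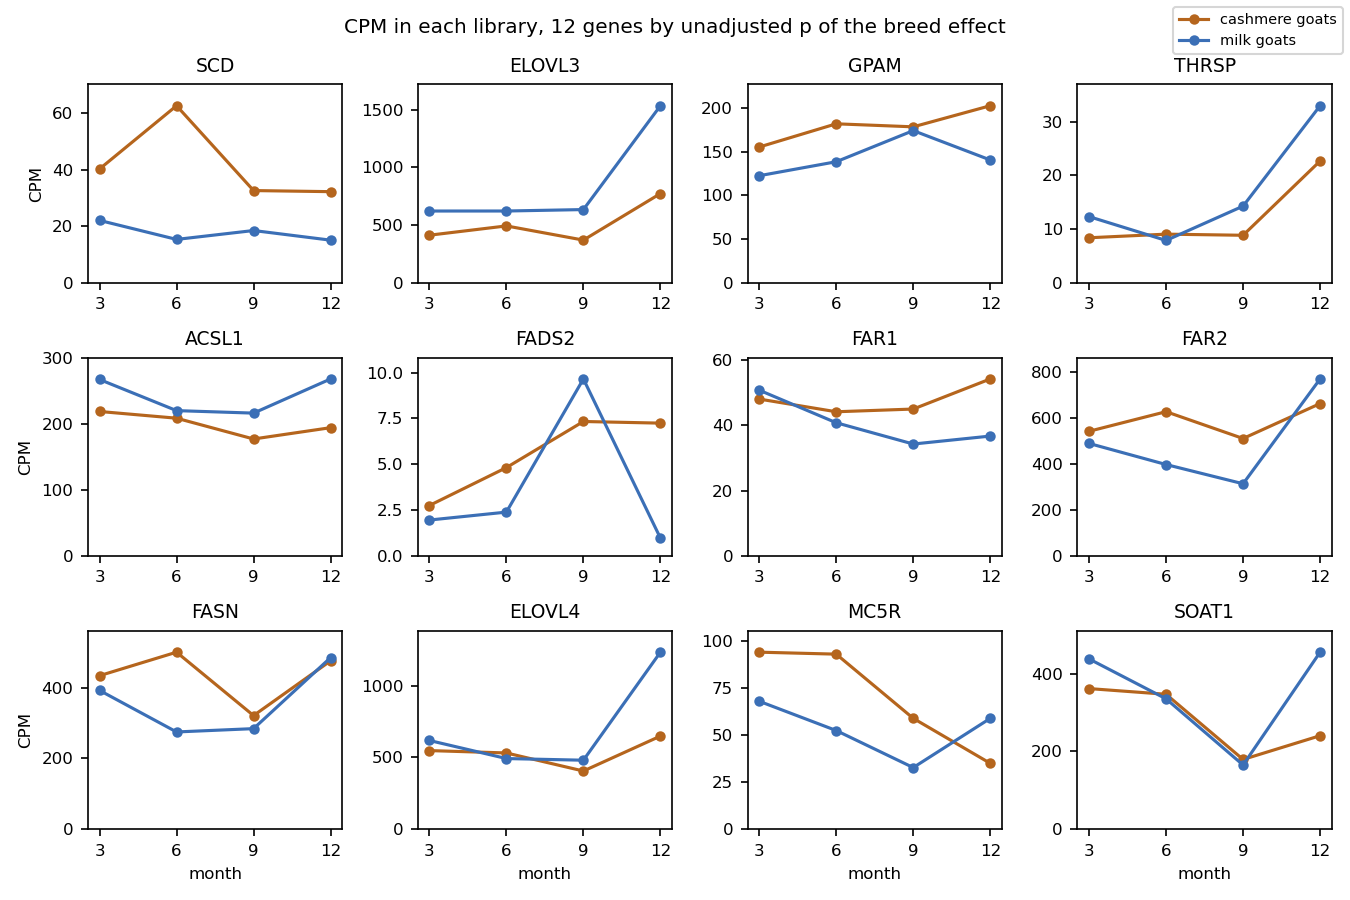
CPM in each library against month for the 12 genes with the smallest unadjusted p of the breed effect, 1 point per library, with lines joining the libraries of a breed and each vertical axis starting at 0. The cashmere line of SCD runs above the milk line at all 4 months, while ELOVL3, THRSP and ELOVL4 reach their highest values in the milk library of month 12.

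The second comparison asked how the genes moved over them. The test of any month difference called 0 genes, 0% of all genes tested, in edgeR, and 7 members had an unadjusted p under 0.05 (22.6%), against 13.4% of all genes. These 7 were THRSP, ACSL5, ELOVL3, SOAT1, ELOVL4, ACSBG1 and DGAT2L6. DESeq2 called 5 of the members, THRSP, ELOVL3, ACSL5, SOAT1 and ELOVL4 (16.1%), against 4.04% of all genes it tested.

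Month 12 was the month of the highest mean level for 18 of the 31 members (58.1%), against 24.1% of all genes. The milk library of month 12 alone was the highest of the 8 for 16 members (51.6%), against 21.2% of all genes, and for 14 members when counts were scaled by library totals, against 19.0% of all genes. Between months 12 and 6 the median log2 fold change of the members was 0.35, against 0.00 for all genes. It was positive for 23 of 31 members and for 7039 of all 14085 genes. With library totals the median and count of the members became 0.34 and 23 of 31. These values average the breeds, which were not alike here. The members' median log2 ratio of cashmere to milk was 0.34 at month 6 and -0.35 at month 12. The rise was therefore mostly larger in milk goats, where month 12 is 1 library. The contrast called 0 members and 0% of all genes in edgeR. At an unadjusted p under 0.05 there were 6 members (19.4%), against 7.6% of all genes, and all 6 were higher at month 12 (4% of all genes were higher and 3.6% lower at that p). These 6 were THRSP, ACSL5, ELOVL3, ELOVL4, DGAT2L6 and ACSBG1. In both breeds 14 members (45.2%) were higher at month 12 than at month 6, against 26% of all genes.

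THRSP led this contrast. It was 3.22-fold higher at month 12 than at month 6, a log2 fold change of 1.69 ± 0.28 (SE), with an adjusted p of 0.258 in edgeR and of 0.000468 in DESeq2. ACSL5, also given in full after its values were seen, was at 70.5, 65.3, 71.7 and 110 CPM in cashmere goats and at 61.4, 51.2, 75.2 and 129 CPM in milk goats. Its log2 fold change was 1.04 ± 0.20 (SE, adjusted p = 0.404 in edgeR and 0.00601 in DESeq2). ELOVL3 followed at 0.98 ± 0.26 (SE, adjusted p = 0.551 in edgeR and 0.00963 in DESeq2). These 3 members (9.68%) passed in DESeq2, where 0.694% of all genes did. In each breed the month 12 library was the highest of the 4 for THRSP, ACSL5, ELOVL3 and ELOVL4. The same held for ACSBG1, DGAT2L6, KRT79, ACACA, ELOVL7 and FAR2, and the share over all genes was not counted. The second count table gave 1.81 for THRSP, 0.91 for ACSL5 and 0.75 for ELOVL3, and none passed there. Without the cashmere library of month 12, edgeR called THRSP at 1.79 (adjusted p = 0.0372), ACSL5 at 1.23 (0.0304) and ELOVL1 at 1.13 (0.0317), values that rest on the milk library alone at month 12, in a fit where 3.15% of all genes passed.

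**Figure D4:**
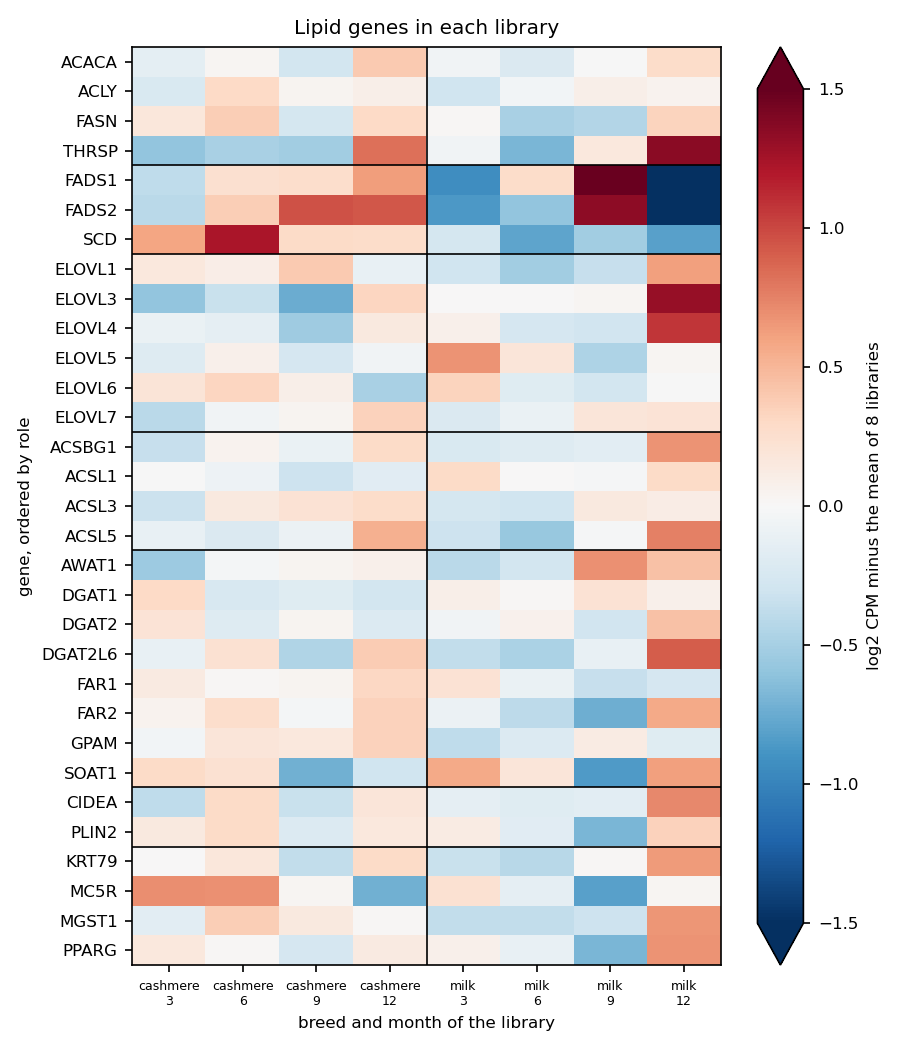
Log2 CPM of the 31 tested genes in each library minus the gene's mean over 8 libraries (red higher, blue lower, colours capped at 1.5), with genes grouped by role and libraries by breed and month. The milk column of month 12 holds the highest value for 16 of the 31 genes, FADS1 and FADS2 are at their lowest there and at their highest in the milk column of month 9, and the SCD row separates the breeds.

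Markers of other cell types also differed between these libraries. In the milk library of month 12 the sum over 10 epidermal marker genes was 62698 CPM, against 32897 to 43922 CPM in the other 7 libraries. For 8 fibroblast genes the sum was 2529 CPM there and 2555 CPM in the cashmere library of month 12. It ran from 5385 to 33683 CPM in the remaining libraries. The 12 sebocyte markers found are all among the 33 genes. They summed to 3890 CPM in the milk library of month 12, against 1683 to 2528 CPM in the others. Most of it came from ELOVL3 at 1533, KRT79 at 799, FAR2 at 770 and SOAT1 at 456 CPM, each highest in that library. FADS2 was lowest there at 0.969 CPM, and MC5R and AWAT1 were highest in other libraries. Of the 13 markers listed for sebocytes, AWAT2 was near 0 and HSD3B1 was not listed in this table, and the other 11 were measured in all 8 libraries. Of 14 fat cell markers 11 were found, and their sum ran from 140 to 263 CPM in cashmere goats and from 154 to 247 CPM in milk goats. Most of that sum was PLIN4, a droplet coat protein of fat cells, at 89.0 to 201 CPM. Leptin (LEP) had at most 2 reads in any library, and adiponectin (ADIPOQ) ran from 0.0919 to 1.50 CPM in 7 libraries and reached 10.6 CPM, or 130 reads, in the milk library of month 3. LPL was also highest in that library, at 25.6 CPM against 4.93 to 14.6 CPM in the others. In several lists most breed values had the same sign. All 8 hair shaft keratins found, of 15 listed, had a positive log2 fold change, cashmere over milk goats, with a median of 1.44. So did 6 of the 7 inner root sheath genes found, of 11 listed, with a median of 1.23. Positive values made up 52.8% of all genes tested. None of either list passed in edgeR, and their sums overlapped between the breeds. The hair shaft sum ran from 784 to 2024 CPM in cashmere goats and from 68.3 to 2337 CPM in milk goats. The inner root sheath sum ran from 22150 to 74425 CPM in cashmere goats and from 3007 to 177984 CPM in milk goats. All 7 smooth muscle genes had a negative log2 fold change, with a median of -0.47, and LMOD1 at -1.20 and DES at -1.63 passed (adjusted p = 0.0257 and 0.0325). One gene each of the fibroblast, endothelial and macrophage lists was lower in cashmere goats, and no gene of the sebocyte, fat cell, epidermal and sweat gland lists passed. The part of these cell types in the month and breed values of the lipid genes, SCD and ELOVL3 included, was not tested.

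**Figure D5:**
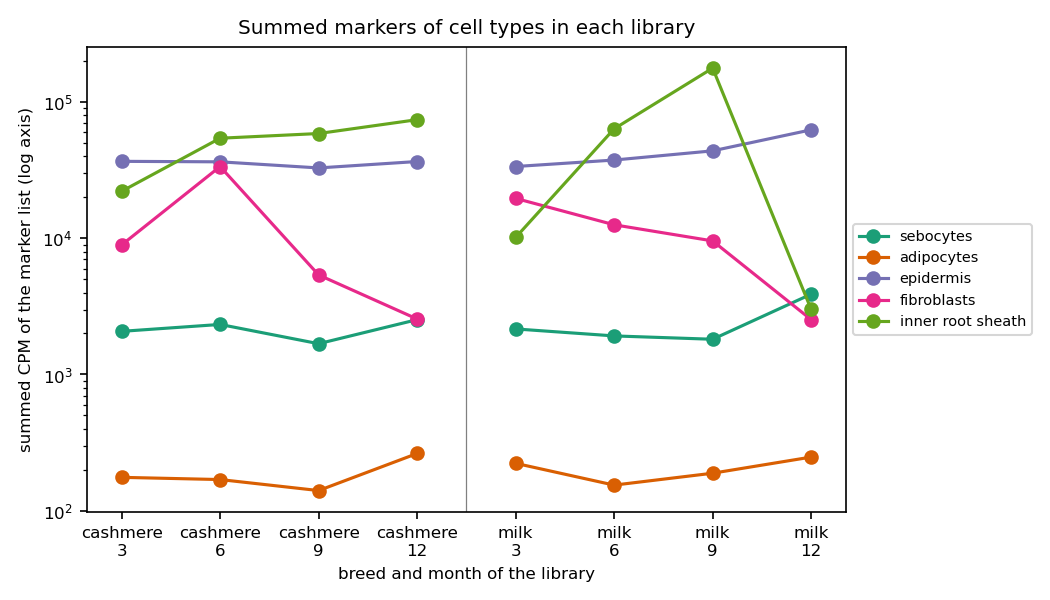
Summed CPM (log axis) of marker genes of sebocytes, fat cells, epidermis, fibroblasts and the inner root sheath in each of the 8 libraries, ordered by breed and month. The inner root sheath sum ranges from 3007 to 177984 CPM. The sebocyte sum ranges from 1683 to 3890 CPM, is highest in the milk library of month 12 and comes mostly from ELOVL3, KRT79, FAR2 and SOAT1.

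Between months 9 and 3 the median log2 fold change of the members was -0.04, against 0.00 for all genes, and edgeR called 0 members and 0% of all genes. At an unadjusted p under 0.05 there were 4 members (12.9%), against 23.6% of all genes. Of these, 3 were higher and 1 lower at month 9, where 12.6% and 11% of all genes were. They were FADS2 at 1.97 ± 0.68 (SE, adjusted p = 0.148), FADS1 at 1.74 ± 0.67 (0.179), AWAT1 at 0.88 ± 0.30 (0.150) and SOAT1 at -1.20 ± 0.29 (0.119). SOAT1 was the only one of them called by DESeq2, at -1.19 with an adjusted p of 0.00433 where 8.35% of all genes passed, and the second count table gave -1.25 for it. With library totals in place of TMM the median of all genes moved to -0.32 and that of the members to -0.37, so values of this contrast hold only relative to the bulk of genes. The balance at an unadjusted p under 0.05 turned as well, to 2 members higher (FADS1 and FADS2) and 9 lower, against 4.93% and 22.5% of all genes, and AWAT1 was no longer among them. Without the month 12 library of either breed, edgeR called FADS1, FADS2, MC5R and SOAT1 here, with MC5R at -0.87 and -0.86 (adjusted p = 0.0204 and 0.0215). In these 2 fits 14.1% and 13.6% of all genes passed.

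The last comparison over all libraries asked whether the course over the months differed between breeds. It used a cosine and a sine term of a 12-month cycle for each breed. Such a cycle takes the months as calendar months, while the labels carry them in a field for age. This comparison called 0 members and 0% of all genes in edgeR. FADS1 and MC5R had unadjusted p-values of 0.0246 and 0.0258, both adjusted to 0.686, and 2 of 31 members (6.45%) under 0.05 stood beside 6.42% of all genes. FADS1 peaked at month 9 in milk goats and at month 12 in cashmere goats, and MC5R was lowest at month 12 in cashmere goats and at month 9 in milk goats.

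Single months were compared as 1 library against 1, with no replicate check, and the intervals given are exact 95% limits of counting error only. Copies of one molecule made by PCR count as separate reads, since the libraries carry no molecular identifiers that the labels name. The median log2 ratio of cashmere to milk over the 31 members was 0.06 at month 3, 0.34 at month 6, 0.04 at month 9 and -0.35 at month 12, against 0.02, 0.00, 0.06 and -0.02 for all genes. Cashmere held the higher value for 17, 25, 16 and 9 of the 31 members in these months (54.8%, 80.6%, 51.6% and 29.0%), against 52.2%, 50.4%, 54.7% and 48.9% of all genes. The shares at months 3 and 9 were close to those of all genes. At month 6 the highest ratios were those of SCD at 2.03 (1.79 to 2.28), FASN at 0.86 (0.80 to 0.93) and MC5R at 0.83 (0.68 to 0.98), and the lowest those of ELOVL3 at -0.34, DGAT2 at -0.26 and ELOVL5 at -0.11. At month 12 FADS1 led at 2.20 (1.97 to 2.45), ahead of SCD at 1.10 (0.81 to 1.39) and FAR1 at 0.56, while ELOVL3 was lowest at -0.99 (-1.03 to -0.95), with ELOVL4 at -0.93 and SOAT1 at -0.92. FADS1 had the opposite sign at month 9, -1.23 (-1.37 to -1.08), where ELOVL3 was at -0.78 and THRSP at -0.69 and MC5R, SCD and ELOVL1 led at 0.85, 0.82 and 0.74. At month 3 SCD, FADS1 and MC5R led at 0.87, 0.56 and 0.47, and ELOVL5, ELOVL3 and THRSP were lowest at -0.88, -0.59 and -0.56. SCD was thus among the 3 highest and ELOVL3 among the 3 lowest in each of the 4 months.

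Genes that supply, regulate or use the same lipids were counted from lists that hold none of the members. The lists were chosen with earlier results of these data known, so their shares are not independent support. The breed calls on them come from the fit of all libraries. Without any single library of month 3, 6 or 9, only 0 to 4 genes of the whole table passed the breed test. Of 33 tested genes of fatty acid synthesis and its regulation, 2 were higher in cashmere goats in edgeR (6.06%) and 0 lower, against 1.47% and 3.32% of all genes, with a median log2 fold change of 0.25. They were INSIG2 and INSIG1, proteins of the endoplasmic reticulum that hold back the sterol-regulated transcription factors SREBP when sterols are plentiful. INSIG2 was at 16.3, 13.2, 16.4 and 15.4 CPM in cashmere goats and at 6.35, 7.39, 8.64 and 5.37 CPM in milk goats, without overlap, and its log2 fold change was 1.15 ± 0.19 (SE, adjusted p = 0.0319). INSIG1 was at 15.0, 21.0, 21.5 and 15.0 CPM against 8.79, 14.3, 12.2 and 7.49 CPM, also without overlap, and its log2 fold change was 0.78 ± 0.16 (SE, adjusted p = 0.0429). SREBF1, which encodes the SREBP that drives fatty acid synthesis and is a known regulator of SCD, was at 0.19 ± 0.14 (SE, adjusted p = 0.425).

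Of 28 tested genes of fatty acid oxidation, HADHB, a subunit of the mitochondrial trifunctional protein, and CPT2, which hands acyl groups to coenzyme A inside mitochondria, were higher in cashmere goats, at 0.66 and 0.80 (adjusted p = 0.0339 and 0.0395, edgeR), and 0 were lower. These 2 are 7.14% of the list, against 1.47% of all genes. Of 21 tested genes of epidermal barrier lipids, SMPD1, an acid sphingomyelinase, was higher at 0.68 (adjusted p = 0.0379) and 0 were lower, which is 4.76% of the list against 1.47% of all genes. None of 23 tested genes of glycerolipid synthesis and droplets passed, where MGLL stood at -0.59 (adjusted p = 0.0751) and FITM2 at 0.47 (0.101). None of 16 genes of fatty acid uptake and binding passed either, where ACBD3 stood at -0.61 (0.0806) and LPL, the lipase that releases fatty acids from circulating triglycerides, at -1.07 (0.0963). Among 12 other sebaceous gland genes none passed, with PRDM1 at 0.60 and PNPLA5 at -0.54, both at an adjusted p of 0.152. The medians of these 5 lists were 0.08, 0.14, 0.07, 0.04 and 0.09, against 0.03 for all genes.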

How the data were processed

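8 skin RNA libraries (4 months, 2 breeds) were used. The deposited files hold 2 gene tables of raw read counts and 1 of FPKM; how the authors counted reads, on which genome build and with which strand setting is not given in the sources used here, and Bowtie2 is named in the submitters' processing notes without role or version. Coordinates are therefore not given. RefSeq (ARS1.2) served for gene order only and matched 33 of 34 symbols.
The first count table was tested with edgeR 4.0.16 in R 4.3.3: TMM factors, filterByExpr by breed (14085 genes), month and breed as terms, 3 residual degrees of freedom, quasi-likelihood F test, Benjamini-Hochberg adjustment over all genes, threshold 0.05. A breed by 12-month cycle fit left 2. SE is the absolute log2 fold change divided by the root of F. Log2 CPM in the plot used a prior count of 2.
Genes described in full are those called for breed or month, then by unadjusted breed p up to 12; pathway lists name up to 4 called genes or else the 2 with the smallest p; single months name the 3 highest and 3 lowest ratios among members with at least 100 reads. The members and lists were chosen with earlier results of these data known.
Alternatives were DESeq2 1.42.0, other scalings and filters, limma 3.58.1 on log2(FPKM + 1) and log2(FPKM + 0.1), a model without month, left-out libraries and the second count table, whose use for the month and season tests was chosen after seeing the data. The breed test was also run on simulated counts with the same breed effect in every month and a spread set by level alone. That check does not cover breeds that differ in their course over the months.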

Additional observations from a re-analysis of the deposited data

Results flagged for a closer look

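Within a breed, 9 of 62 groups of 4 libraries held 1 library that stood apart from the others. The rule flags about 1 in 20 groups of alike libraries. The 4 libraries of a group here are of different months, and all groups of a breed share the same libraries. That rate is therefore no measure of chance here. The share over all genes was not counted, so no excess is shown for these genes. The 5 milk goat cases of month 12 were all high. They were ELOVL3 at 1533 CPM against 621 to 633, ACSBG1 at 422.5 CPM against 226 to 237, MGST1 at 158 CPM against 77.3 to 80.7, ELOVL1 at 127 CPM against 57.7 to 67.3, and CIDEA at 52.7 CPM against 27.9 to 29.0. In the milk library of month 9, FADS2 stood at 9.65 CPM against 0.969 to 2.39. In cashmere goats, ACSL5 stood at 110 CPM at month 12 against 65.3 to 71.7, THRSP at 22.6 CPM at month 12 against 8.36 to 9.03, and DGAT1 at 3.43 CPM at month 3 against 2.24 to 2.41.

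HSD3B1 is absent by symbol from the first count table but listed in the second, with 5, 1, 14 and 49 reads in the cashmere libraries of months 3, 6, 9 and 12 and 20, 17, 23 and 37 reads in the milk libraries. The highest count, 49, was at month 12 in cashmere goats. Its breed difference did not pass (log2 fold change -0.50 ± 0.59, SE, adjusted p = 0.613, edgeR).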

How the results depend on the processing

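Of the 31 genes, edgeR called 1 for breed and 0 for month, month 9 against 3, month 12 against 6 and breed by season. DESeq2 called 2, 5, 1, 3 and 0. Limma on log2(FPKM + 1) called 2 for breed. With both libraries of month 3, 6 or 9 left out the breed count was 0, 0 and 0. With those of month 12 left out it was 3, in a fit where 5.97% of all genes passed. With 1 library left out it ranged from 0 to 3 for breed, from 0 to 6 for month, from 0 to 4 for month 9 against 3 and from 0 to 3 for month 12 against 6. The 6 month calls came without the cashmere library of month 12, which left 1 library in that month. Calls over all genes rose in that fit as well. Season was not refitted without a library. RLE factors, library totals, both filters, log2(FPKM + 0.1), the model without month and the second count table kept every count that they gave. SCD was positive in all 21 alternatives (log2 fold change 0.89 to 1.41) and called in 12, with adjusted p-values from 0.00017 to 0.115. Over all genes, DESeq2 called 1691 for breed, 536 for month, 1107 for month 9 against 3 and 94 for month 12 against 6, where edgeR called 675, 0, 0 and 0. Left-out libraries of months 3, 6 and 9 left 0 to 4 breed calls, and those of month 12 left 869 (cashmere) and 743 (milk). Library totals moved the median breed value of all genes to 0.14, log2(FPKM + 1) to 0.16 and log2(FPKM + 0.1) to 0.23, and 3, 5 and 5 members changed sign, DGAT2, ELOVL7 and ACSBG1 among them with library totals. The reported fit pairs the breeds by month; without month as a term, 1 member, SCD, was called for breed.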

Other observations

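The gene tables did not list the same models. MGST1 had 9 to 34 reads in the second table where the first listed 768 to 1797, MC5R and PPARG were not found by symbol in the second, and ACACA and FADS2 each had 2 rows there. DGAT1 had a log2 fold change between breeds of -0.20 in the first table and 0.95 in the second, where it had 6 to 23 reads per library, and it passed in neither (adjusted p = 0.657 and 0.303, edgeR). PLIN5 was listed in the second table with 2 to 10 reads per library.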
